A study of Danio rerio with 8 samples.

Results

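Fatty acid oxidation genes and their regulators were followed in tail muscle of runx2b-/- and wild type zebrafish. The group was a list of 36 gene symbols, found by exact match in a table of 25279 genes. Of these, 34 were present, and etfa and ucp2 are not analysed here. Bulk RNA came from tail muscle with its intermuscular bones left in, thin bones found in the septa between muscle segments of many teleosts. The groups were runx2b-/- mutants and wild type fish, with 3 libraries each, both at 60 days post fertilization and both in a Tg (sp7/eGFP) transgenic line, so the controls carry the reporter too. The kind of runx2b mutation, the sex of the fish, their feeding, the hour of sampling and the number of fish behind a library are not stated in the labels. The p-values therefore reflect no more than the variation among these libraries, which may be technical. The 2 single-cell samples of the series were not analysed here.

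Fatty acids enter a muscle fibre with the help of membrane carriers, are held by small binding proteins, and are activated to acyl-CoA by synthetases. The carnitine shuttle then moves them into the mitochondrion, where acyl-CoA dehydrogenases start each round of beta-oxidation, other enzymes complete it, and the electron transfer flavoprotein passes the electrons to the respiratory chain. Nuclear receptors of the PPAR family and their PGC-1 coactivators drive this programme, and pyruvate dehydrogenase kinases spare glucose when fat is burned, most of all in slow, red fibres and in fasting.

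Total counts were 17280098 to 20429162 in the mutant libraries and 19890668 to 20482003 in the wild type libraries, and 3 counts were worth 0.134 to 0.181 CPM, a count scaled to the size of its library. The mutated gene was barely detected and cannot check the labels: runx2b had 4, 2 and 6 counts in mutant libraries 1 to 3, and 2, 2 and 6 counts in wild type libraries 1 to 3. The tissue was muscle by its markers, since 10 fast muscle genes summed to 334400 to 476600 CPM in mutant and 310900 to 466200 CPM in wild type libraries, whereas the osteoblast gene sp7 had 0 counts in each mutant library and 4, 2 and 1 counts in wild type libraries 1 to 3. The first principal component of all tested genes set the genotypes apart, with mutant libraries at -37.7 to -25.1 and wild type libraries at 15.4 to 43.0. On the second the mutant libraries lay together, at 3.0 to 11.1, and wild type libraries 1, 2 and 3 lay apart, at 35.1, -7.3 and -45.6. The 34 genes held 0.254% to 0.372% of the counts of a mutant library and 0.258% to 0.347% of a wild type library.

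No fatty acid oxidation gene passed the test between the genotypes. Of the 34 present, 32 had enough counts to be tested, and 0 were called at a Benjamini-Hochberg adjusted p under 0.05 in edgeR's quasi-likelihood test over all genes, where 3.37% of 14107 tested genes were called (1.76% higher and 1.62% lower in the mutant). DESeq2, which gave an adjusted p for 31 of them, and limma voom also called 0. Without a count filter 2 were called higher (acsl1a and ppargc1b), where 2.17% of all genes were called higher. An unadjusted p under 0.05 was reached by 4 (3 with a positive and 1 with a negative difference), against 19.4% of all tested genes (9.96% positive and 9.41% negative). The mutant and wild type libraries did not overlap in 6 genes (2 above and 4 below in the mutant), against 24.6% of all tested genes (12.8% above and 11.7% below). The 32 log2 fold changes, mutant minus wild type, ran from -0.52 to 0.89 with a median of -0.02, and the median over all tested genes was -0.01. In bulk tissue, fewer cells of a type and less RNA per cell cannot be told apart.

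The precision differed widely between the genes. For 22 of the 32 the 95% interval of the difference lay within a 2-fold change in either direction, and for 12 within 1.5-fold. For the other 10, among them pdk2b, ucp3, pparab, angptl4 and pdk2a, the interval reached past 2-fold in at least 1 direction.

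**Figure D1:**
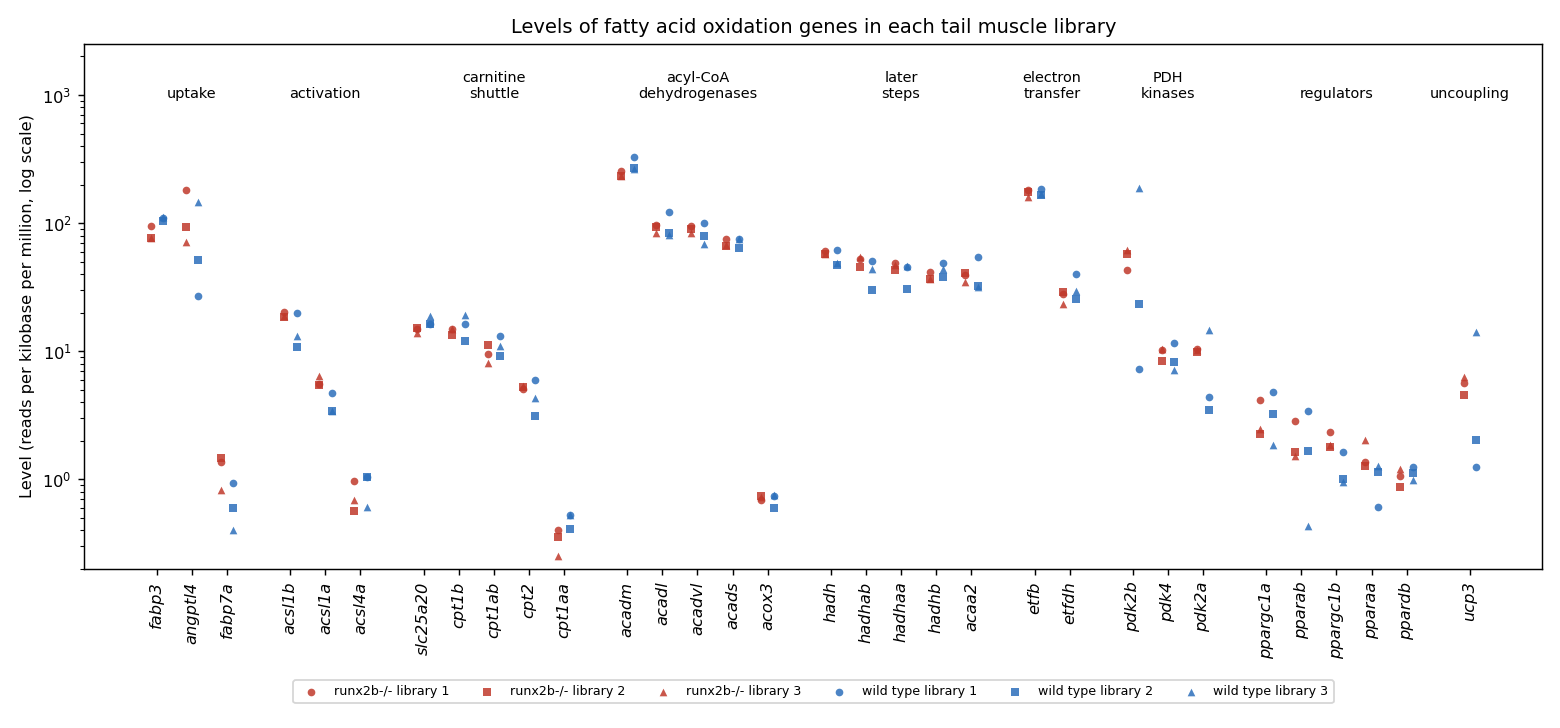
Levels of the 32 tested genes in RPKM (vertical log axis), grouped by step, with mutant libraries in red to the left of wild type libraries in blue and 1 point per library. acadm and etfb stand highest among the enzymes, and the wild type points of pdk2b, pdk2a and ucp3 lie far apart.

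In uptake and binding, the muscle fatty acid binding protein gene fabp3 (chromosome 19, 43385843 to 43423869) was the one gene of the whole list with a negative difference at an unadjusted p under 0.05. Levels are given as RPKM, which scales counts by library size and gene model length, so that genes can be set side by side. fabp3 stood at 95.2, 76.5 and 76.1 RPKM in mutant libraries 1 to 3, and at 108.8, 104.1 and 111.0 RPKM in wild type libraries 1 to 3. The groups did not overlap, with mutant library 1 closest to the wild type libraries. Its log2 fold change was -0.39 (SE 0.16, 95% interval -0.72 to -0.05, unadjusted p = 0.0282), with an edgeR adjusted p of 0.196. fabp7a, a binding protein gene best known from the nervous system, was low, at 1.22 ± 0.35 RPKM in mutant and 0.65 ± 0.27 RPKM in wild type (mean ± SD, n = 3 each), and the groups overlapped (difference on the log2 scale 0.89, SE 0.42, adjusted p = 0.27 by edgeR).

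cd36, the gene of a fatty acid translocase of the plasma membrane, had 0 counts in the mutant and 1 count in the wild type libraries. It was below the count filter, and at this depth no difference could be shown. angptl4, which encodes a secreted inhibitor of lipoprotein lipase, had 182.1, 93.2 and 71.5 RPKM in the mutant libraries, and 27.1, 51.4 and 146.2 RPKM in the wild type libraries. Wild type library 3 lay above mutant libraries 2 and 3, and the log2 fold change of 0.63 had an SE of 0.78 (edgeR adjusted p = 0.735).

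The acyl-CoA synthetase gene acsl1a (chromosome 1, 16844514 to 16894615), whose product activates long-chain fatty acids, had the lowest adjusted p of the list. It stood at 5.53, 5.42 and 6.40 RPKM in mutant libraries 1 to 3 and at 4.68, 3.41 and 3.41 RPKM in wild type libraries 1 to 3. Every mutant library lay above every wild type library. The log2 fold change was 0.59 (SE 0.17, 95% interval 0.22 to 0.97, unadjusted p = 0.00492), and the edgeR adjusted p was 0.0842, above the threshold. It was 0.0171 without wild type library 1, the highest of that group, and 0.0432 without a count filter.

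Its paralog acsl1b, the most abundant synthetase gene of the list, was even in the mutant libraries, at 20.1, 18.6 and 19.0 RPKM, and spread in the wild type libraries, at 19.9, 10.8 and 13.2 RPKM. Wild type library 1 overlapped the mutant libraries. The log2 fold change was 0.39 (SE 0.21, adjusted p = 0.329 by edgeR), and without wild type library 1 it was 0.67 with an adjusted p of 0.0315. Without wild type library 2, the lowest of that group, it was 0.20 (adjusted p = 0.715). acsl4a, which prefers arachidonic acid in mammals, stood at 0.74 ± 0.21 RPKM in mutant and 0.90 ± 0.25 RPKM in wild type (log2 fold change -0.27, SE 0.28).

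In the carnitine shuttle, 4 of 5 genes had negative differences and none was called. The carnitine-acylcarnitine translocase gene slc25a20, which exchanges acylcarnitine for carnitine across the inner mitochondrial membrane, was the most abundant, with 14.8, 15.1 and 13.8 RPKM in the mutant libraries against 16.3, 16.4 and 18.99 RPKM in the wild type libraries. The groups did not overlap, at a log2 fold change of -0.24 (SE 0.15, 95% interval -0.57 to 0.08) with an edgeR adjusted p of 0.415.

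The carnitine palmitoyltransferase I genes encode the rate-limiting step of mitochondrial entry. The muscle type cpt1b was the most abundant of the 3, at 14.4 ± 0.78 RPKM in mutant and 15.8 ± 3.57 RPKM in wild type (log2 fold change -0.14, SE 0.18). cpt1ab stood at 9.59 ± 1.56 RPKM in mutant and 11.1 ± 1.94 RPKM in wild type (log2 fold change -0.21, SE 0.18). cpt1aa was rare, at 0.34 ± 0.08 RPKM in mutant and 0.49 ± 0.07 RPKM in wild type, without overlap. Its difference of -0.52 on the log2 scale (SE 0.29, adjusted p = 0.355 by edgeR) was the most negative of the list. cpt2, for the enzyme that restores acyl-CoA inside the mitochondrion, was the 1 shuttle gene with a positive difference, of 0.23 (SE 0.21).

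The acyl-CoA dehydrogenases, each of which prefers a range of chain lengths, had the highest summed level of the steps among the 34 listed genes. The medium-chain gene acadm (chromosome 2, 26814436 to 26820516) led with 253.8, 231.2 and 232.4 RPKM in the mutant libraries against 328.3, 268.0 and 262.1 RPKM in the wild type libraries. The groups did not overlap, yet mutant library 1 came close to wild type library 3, and the log2 fold change of -0.26 (SE 0.16, 95% interval -0.60 to 0.08) had an edgeR adjusted p of 0.396.

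The very long-chain gene acadvl, the long-chain gene acadl and the short-chain gene acads lay at 89.3 ± 5.63, 91.2 ± 6.81 and 69.6 ± 4.34 RPKM in mutant, and at 82.6 ± 15.5, 95.7 ± 23.0 and 71.5 ± 7.05 RPKM in wild type. Their log2 fold changes were 0.11 (SE 0.17), -0.07 (SE 0.18) and -0.04 (SE 0.15). In all 3 the groups overlapped. acox3, a peroxisomal acyl-CoA oxidase gene, was far less abundant than these mitochondrial genes, at 0.72 ± 0.03 RPKM in mutant and 0.70 ± 0.09 RPKM in wild type.

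In the later steps of beta-oxidation the groups overlapped in all 5 genes. hadh, for the hydroxyacyl-CoA dehydrogenase of medium and short chains, had 60.1, 57.2 and 57.6 RPKM in the mutant libraries against 61.7, 47.5 and 48.7 RPKM in the wild type libraries, and the groups overlapped through wild type library 1. Its log2 fold change was 0.15 (SE 0.16, edgeR adjusted p = 0.658). The alpha subunit genes of the trifunctional protein, hadhaa and hadhab, differed by 0.20 (SE 0.18) and 0.29 (SE 0.19), and the beta subunit gene hadhb by -0.18 (SE 0.16). hadhaa and hadhb are neighbours on chromosome 20 on opposite strands and share 103 bases of exon, so a part of their reads may be split between them. acaa2, the gene of a mitochondrial thiolase, differed by -0.05 (SE 0.21).

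The electron transfer gene etfb had the smallest SE of the list. It encodes the beta subunit of the electron transfer flavoprotein and stood at 182.1, 174.9 and 159.4 RPKM in the mutant libraries and at 183.1, 166.1 and 169.1 RPKM in the wild type libraries. The groups overlapped, and the log2 fold change was -0.01 (SE 0.15), with a 95% interval of -0.32 to 0.31. etfdh, whose product hands the electrons on to ubiquinone, differed by -0.24 (SE 0.19, edgeR adjusted p = 0.515).

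**Figure D2:**
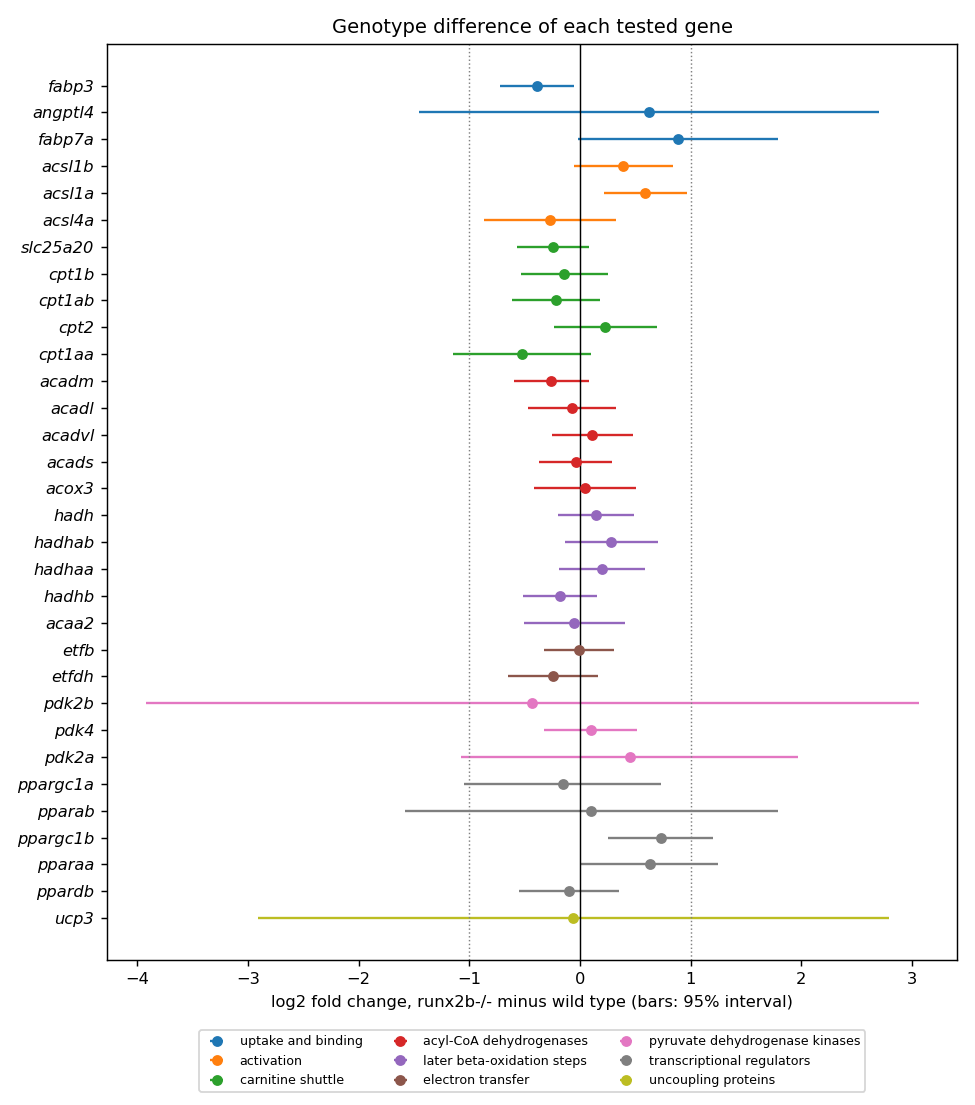
Log2 fold change of each tested gene, mutant minus wild type (horizontal axis; points with 95% interval bars, n = 3 libraries a group), coloured by step; dotted lines mark a 2-fold change. The intervals from acadm to etfdh lie within the dotted lines, whereas those of pdk2b, ucp3, angptl4 and pparab are wide.

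Among the transcriptional regulators, 3 of 5 had positive differences and none was called. ppargc1b (chromosome 14, 24637886 to 24704339), for the coactivator PGC-1 beta, stood at 2.32, 1.79 and 1.86 RPKM in the mutant libraries against 1.63, 1.00 and 0.96 RPKM in the wild type libraries. All mutant libraries lay above all wild type libraries. The log2 fold change was 0.73 (SE 0.22, 95% interval 0.26 to 1.2, unadjusted p = 0.00557) and the edgeR adjusted p was 0.0900. As with acsl1a, this passed the threshold without wild type library 1 (log2 fold change 1.01, adjusted p = 0.00798) and without a count filter (adjusted p = 0.0151). With 1 of the other 5 libraries left out, the edgeR adjusted p of ppargc1b was 0.119 to 0.32, and that of acsl1a 0.114 to 0.297.

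Direction also went with gene length across the table: among 10 length classes, the shortest genes had a median log2 fold change of -0.11 and the longest one of 0.19. With 7020 bases ppargc1b lies in the longest class, as does acsl1b with 7443 bases. acsl1a, with 4809 bases, lies in the class below it (median 0.10). fabp3, with 835 bases, lies in the shortest class, and with a correction for length its log2 fold change was -0.29 (edgeR adjusted p = 0.342). With a correction for length, the log2 fold change of ppargc1b was 0.57 (edgeR adjusted p = 0.209), that of acsl1a 0.52 (adjusted p = 0.139) and that of acsl1b 0.22 (adjusted p = 0.648).

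ppargc1a, for PGC-1 alpha, the better known coactivator of mitochondrial genes, was the most abundant regulator, at 4.18, 2.24 and 2.48 RPKM in the mutant libraries and 4.81, 3.25 and 1.85 RPKM in the wild type libraries. The groups overlapped, with a log2 fold change of -0.16 (SE 0.38, edgeR adjusted p = 0.87). pparaa, for a PPAR alpha receptor, had 1.36, 1.27 and 2.01 RPKM in the mutant libraries against 0.60, 1.14 and 1.27 RPKM in the wild type libraries. Its lowest mutant and highest wild type library nearly coincided, and the log2 fold change of 0.63 (SE 0.28, unadjusted p = 0.0471) had an adjusted p of 0.251. The pparaa log2 fold change fell to 0.35 when wild type library 1 was left out, and to 0.40 when mutant library 3 was left out. The other PPAR alpha gene, pparab, spread over 0.43 to 3.43 RPKM in wild type and gave a difference of 0.11 (SE 0.68). ppardb, for a PPAR delta receptor, stood at 1.04 ± 0.17 RPKM in mutant and 1.12 ± 0.14 RPKM in wild type.

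Of 6 pairs of paralogs, 5 had overlapping shares in the genotypes. A share is the first gene's part of the pair's summed RPKM and is given as a description, without a test. hadhaa held 47.9% ± 1.1 of its pair with hadhab in mutant and 49.5% ± 2.1 in wild type (SD, n = 3 each). acsl1a held 23.1% ± 1.9 of its pair with acsl1b in mutant and 21.2% ± 2.5 in wild type, and cpt1aa held 3.4% ± 0.6 of its pair with cpt1ab in mutant and 4.2% ± 0.3 in wild type. The PGC-1 pair was the one without overlap, by a narrow margin. ppargc1a held 64.3%, 55.6% and 57.2% in mutant libraries 1 to 3. In wild type libraries 1 to 3 it held 74.7%, 76.4% and 65.9%. As single genes, 24.6% of all tested genes did not overlap, ppargc1b among them, so this share is not a separate result. The pairs pparaa with pparab and pdk2a with pdk2b varied too much within wild type to be set side by side, with pparaa at 15% to 74.7% and pdk2a at 7.2% to 38% of their pairs.

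The widest ranges within wild type were those of pdk2b, ucp3, pparab, angptl4 and pdk2a. pdk2b (chromosome 19, 5756655 to 5769491), for a pyruvate dehydrogenase kinase, stood at 43.1, 57.1 and 61.5 RPKM in the mutant libraries, and at 7.22, 23.4 and 187.3 RPKM in wild type libraries 1, 2 and 3. All mutant libraries lay between the wild type extremes, which were 25.9-fold apart, and 12 genes of the table had a wider wild type range among the 14033 tested genes with a count in every library. The log2 fold change of -0.43 had an SE of 1.29 and a 95% interval of -3.92 to 3.06. Its exons share 233 bases (9.84%) with si:ch211-264f5.2 on the other strand.

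The uncoupling protein gene ucp3 (chromosome 10, 36706464 to 36729630), for a mitochondrial carrier of muscle whose transcript goes up in fasting in mammals, likewise had its mutant libraries between wild type libraries 2 and 3. It stood at 5.65, 4.59 and 6.32 RPKM in the mutant libraries and at 1.24, 2.01 and 14.1 RPKM in the wild type libraries (log2 fold change -0.06, SE 1.05). pdk2a had 10.5, 9.94 and 10.2 RPKM in the mutant libraries against 4.42, 3.48 and 14.6 RPKM in the wild type libraries (log2 fold change 0.45, SE 0.59). In these 3 genes wild type libraries 1 and 2 were lowest and wild type library 3 highest, with the mutant libraries close together in between. pdk4, the kinase gene most often induced by fasting in mammals, did not share this order, at 10.2, 8.33 and 10.4 RPKM in the mutant libraries and 11.6, 8.25 and 7.18 RPKM in the wild type libraries (log2 fold change 0.10, SE 0.19). ucp1, known for heat production in mammalian brown fat, had 1, 0 and 0 counts in mutant libraries 1 to 3 and 8, 2 and 0 counts in wild type libraries 1 to 3. Most of its counts were in wild type library 1, and it was below the filter of the test (adjusted p = 0.328 in edgeR without a filter).

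The calls for these genes turned on wild type library 3. Without it, ucp3 was called higher in the mutant (log2 fold change 1.77, SE 0.24, adjusted p = 0.000954 by edgeR), and so was pdk2a (1.37, SE 0.18, adjusted p = 0.00088). pdk2b then stood at 1.82 (SE 0.53, adjusted p = 0.112) and angptl4 at 1.56 (SE 0.51, adjusted p = 0.133). These calls are 2 of 32 genes, in a setting in which 8.25% of all tested genes were called and 3.85% were called higher. Without wild type library 1 instead, 3 of the 32 were called higher (acsl1a, acsl1b and ppargc1b), where 4.61% of all tested genes were called and 2.31% called higher, and ucp3 and pdk2b had negative differences of -0.55 and -0.98. Leaving out wild type library 2 or any mutant library gave 0 calls in the list.

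**Figure D3:**
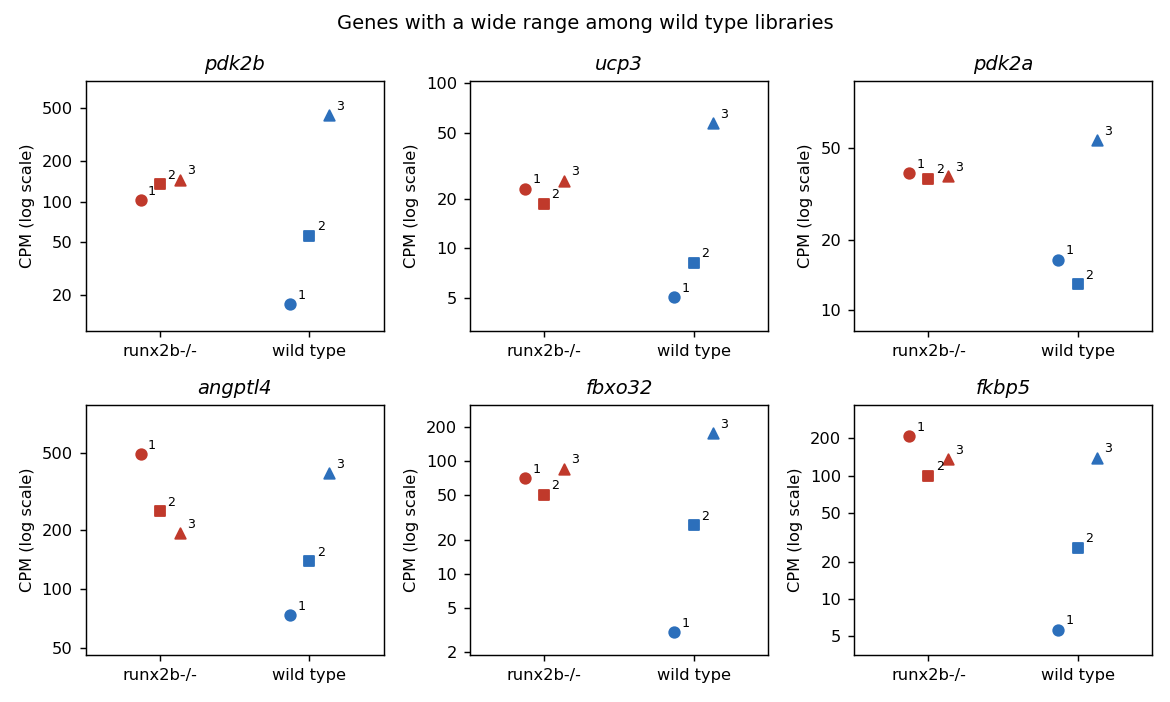
CPM (log axes) of 4 members of the list and of fbxo32 and fkbp5 in each library, mutant left and wild type right, numbered by library. In pdk2b, ucp3 and fbxo32 the order was the same: wild type library 1, wild type library 2, the mutant libraries, wild type library 3.

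Genes of fasting and muscle atrophy were counted beside this spread. The atrophy ubiquitin ligase gene fbxo32 and the glucocorticoid target fkbp5 were picked after their values were seen. fbxo32 had 70.7, 50.2 and 85.9 CPM in the mutant libraries against 3.04, 26.9 and 176.3 CPM in the wild type libraries, and fkbp5 had 208.5, 100 and 135.4 CPM in the mutant libraries against 5.63, 26.1 and 139.7 CPM in the wild type libraries. In both, as in nr1d2a, wild type library 1 was lowest, followed by wild type library 2. In fkbp5 and nr1d2a, however, mutant library 1 was highest, above wild type library 3. In trim63a, trim63b and tsc22d3 wild type library 3 was highest, but the lower places differed. In trim63a and trim63b wild type library 2 was lowest. The mutant libraries of trim63b lay between wild type libraries 1 and 3, as in pdk2a. In tsc22d3 mutant library 3 lay between wild type libraries 1 and 2. Neither fbxo32 nor fkbp5 was called (log2 fold changes 0.01, SE 1.42, and 1.38, SE 1.25). The 12 genes of that list summed to 502.8 to 693.1 CPM in mutant and to 217.6, 264.2 and 906.5 CPM in wild type libraries 1, 2 and 3. The 18 clock genes summed to 218.6 to 279.1 CPM in mutant and to 147.4, 213.6 and 307.3 CPM in wild type libraries 1, 2 and 3. Their part in the values of pdk2b, pdk2a, ucp3 and angptl4 was not tested.

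In these lists 1 of 10 tested fasting and atrophy genes was higher and none lower: foxo3b, a transcription factor gene of the atrophy programme, at 82.9 ± 12.4 CPM in mutant and 36.2 ± 3.86 CPM in wild type, a log2 difference of 1.2 (SE 0.17, edgeR adjusted p = 0.0028). Of 17 clock genes 2 were higher, per1a and dbpa, and none lower. Over all tested genes, 1.76% were called higher and 1.62% lower. foxo3b was also called without any 1 of the 6 libraries (adjusted p 0.00168 to 0.0286), per1a and dbpa in 2 of those 6 settings. Without wild type library 3, 2 of 10 fasting and atrophy genes and 6 of 17 clock genes were called higher, and 1 clock gene lower. In that setting 8.25% of all tested genes were called and 3.85% were called higher. Unlike pdk2b, foxo3b had its wild type library 3 at 34.5 CPM, between the other 2.

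The oxidation list as a whole varied more among wild type than among mutant libraries. In 28 of the 32 genes the ratio of the highest to the lowest library was larger in wild type (87.5%, against 60.4% of the 14033 tested genes with a count in every library). The median ratio was 1.19 in mutant and 1.57 in wild type, beside 1.36 in mutant and 1.47 in wild type over those 14033 genes. Wild type library 1 was the highest of all 6 in 15 of the 32 genes, and wild type library 3 in 9. How often these libraries were highest over all tested genes was not counted, so these numbers cannot be called particular to the list. Nor can the wider wild type range, since the 14033 genes were not matched to the list in abundance. Summed over the 5 acyl-CoA dehydrogenase genes, the level was 489.9 ± 27.2 RPKM in mutant and 536.7 ± 77.6 RPKM in wild type. Summed over the 5 genes of the later steps it was 231.8 ± 10.1 RPKM in mutant and 217.5 ± 41.1 RPKM in wild type.

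**Figure D4:**
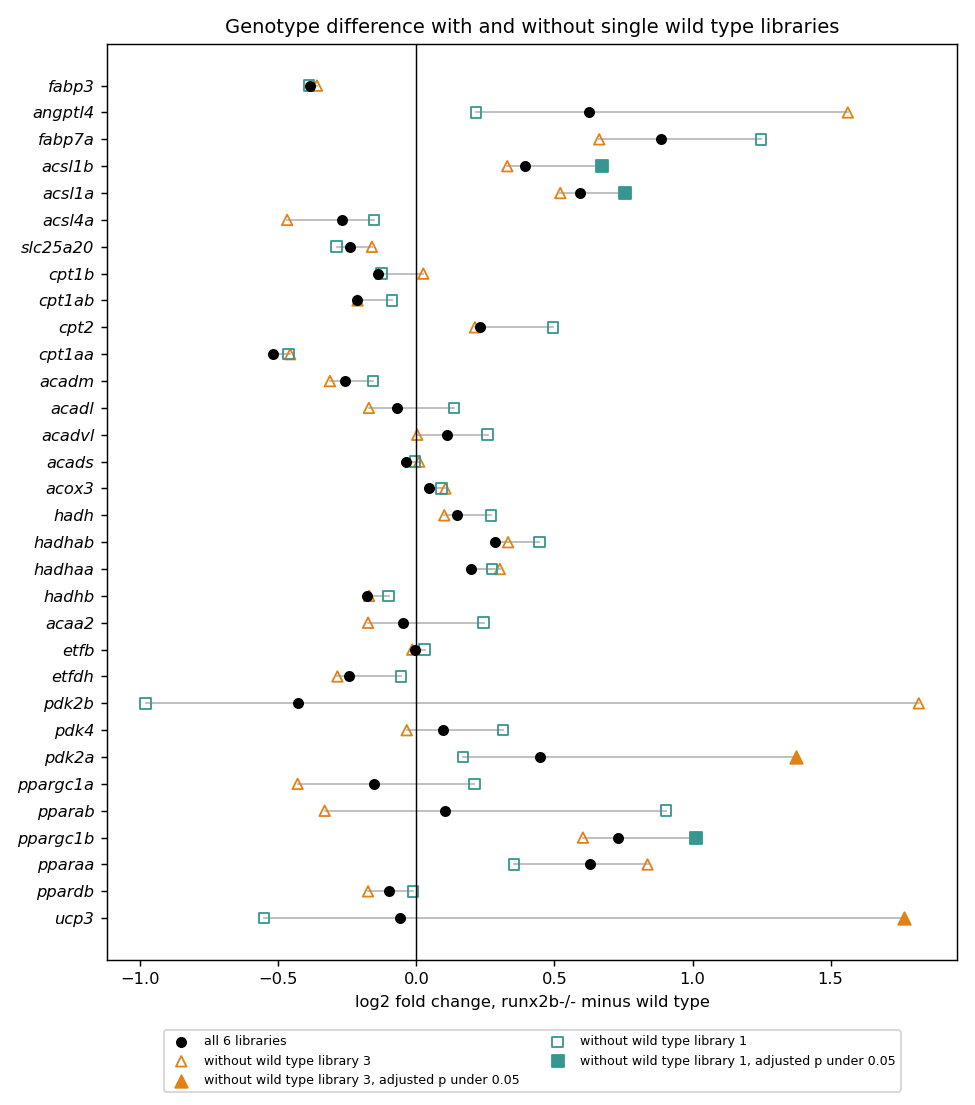
Log2 fold change of each tested gene, mutant minus wild type (horizontal axis), from all 6 libraries (black), without wild type library 3 (triangles) and without wild type library 1 (squares); filled symbols have an adjusted p under 0.05. ucp3 and pdk2a were called without library 3, and acsl1a, acsl1b and ppargc1b without library 1, whereas the enzymes from acadm to etfdh lay between -0.31 and 0.45.

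The rest of the pathway, 90 other genes of which 80 were present and 68 tested, held 0 called genes as well. Their median log2 fold change was 0.05, and 16 had an unadjusted p under 0.05 (11 positive, 5 negative). Over all tested genes, 19.4% had such a p (9.96% positive, 9.41% negative). DESeq2 called 1 of them higher and 1 lower, and limma voom called 0. Among the most abundant of their steps, the binding protein genes fabp1a and fabp11a had log2 fold changes of 0.18 (SE 0.21) and 0.00 (SE 0.17), and the pyruvate dehydrogenase complex genes pdhb and dldh 0.23 (SE 0.17) and 0.16 (SE 0.15). The carnitine acetyltransferase gene crata, which buffers acetyl-CoA, stood at 30.7 ± 2.12 CPM in mutant and 40.9 ± 4.26 CPM in wild type (-0.41, SE 0.15, edgeR adjusted p = 0.165). oxct1a, for the enzyme that lets tissues burn ketone bodies, stood at 27.3 ± 3.27 CPM in mutant and 17.3 ± 3.92 CPM in wild type (0.66, SE 0.19, adjusted p = 0.0795). Its edgeR adjusted p was 0.0205 without a count filter and 0.0194 without wild type library 1. No other setting called oxct1a.

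The lowest adjusted p-values there belonged to 3 genes that were picked after their values were seen. The corepressor gene nrip1a, a brake on oxidative metabolism in mammals, stood at 4.47 ± 0.83 CPM in mutant and 8.18 ± 2.05 CPM in wild type (-0.86, SE 0.22, edgeR adjusted p = 0.0572; DESeq2 adjusted p = 0.0379). The corepressor gene ncor1 stood at 87.5 ± 15.9 CPM in mutant and 56.7 ± 0.89 CPM in wild type (0.63, SE 0.17, edgeR adjusted p = 0.0615; DESeq2 adjusted p = 0.0323). sirt3, a mitochondrial deacetylase gene, stood at 7.13 ± 0.51 CPM in mutant and 10.8 ± 0.44 CPM in wild type (-0.60, SE 0.16, edgeR adjusted p = 0.0628). Without wild type library 1, the edgeR adjusted p of nrip1a was 0.0167 and that of sirt3 0.0494.

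Markers of cells that could carry these transcripts were counted beside them. Over all tested genes, 1.76% were called higher and 1.62% lower. Of 9 slow muscle genes 0 were called and 3 had an unadjusted p under 0.05, all positive. Such a p was reached by 19.4% of all tested genes, 9.96% with a positive difference. The log2 fold changes of the 9 ran from -0.22 to 0.60 with a median of 0.21, 7 positive and 2 negative. At the top of this range, the myoglobin gene mb stood at 2911 ± 491 CPM in mutant and 1917 ± 584 CPM in wild type (0.60, SE 0.22, edgeR adjusted p = 0.151). The slow list summed to 10240 to 10990 CPM in mutant and 7802 to 11250 CPM in wild type libraries. Of 10 fast muscle genes 1 was higher (mybpc2b) and 1 lower (myhz1.2), but with 1 library left out mybpc2b was called in 2 of the 6 settings and myhz1.2 in 0.

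Of 6 tested adipocyte genes 2 were lower in the mutant, the lipid droplet gene plin2 (-1.96, SE 0.28, edgeR adjusted p = 0.00302) and the adiponectin gene adipoqa (-0.80, SE 0.19, adjusted p = 0.0441). plin2 was called without any 1 of the 6 libraries and adipoqa in 1 of those settings. Of the 6 genes, 4 had negative and 2 positive differences, with a median log2 fold change of -0.10. Over all tested genes, 1.62% were called lower. The adipocyte list, which shares fabp11a and pparg with the pathway genes, summed to 324.1 to 441.2 CPM in mutant and 386.0 to 450.5 CPM in wild type libraries. Most of that sum was fabp11a, with a mean of 333.9 CPM in mutant and 333.0 CPM in wild type, so it says little about the other genes of the list. Of 8 red blood cell genes 4 were higher, where 1.76% of all tested genes were called higher. The red blood cell list summed to 1539 to 1792 CPM in mutant and 1158 to 1367 CPM in wild type libraries. All 8 had positive differences. With 1 mutant library left out, 1 of these 8 was called, and without wild type library 1, 2 or 3 the number called was 5, 3 or 4. slc4a1a was called without any 1 of the 6 libraries (edgeR adjusted p 0.000158 to 0.00271). Of 7 blood vessel genes 1 was higher, cdh5, called in 2 of the 6 settings. Of the 7, 6 had positive differences and 1 a negative one. An unadjusted p under 0.05 was reached by 5 of them, all positive. Over all tested genes, 9.96% had such a p with a positive difference, and 19.4% in either direction. The vessel list summed to 97.1 to 116.8 CPM in mutant and 70.9 to 80.0 CPM in wild type libraries. The 7 liver genes summed to 1.09 to 3.45 CPM in mutant and 3.15 to 4.57 CPM in wild type libraries, with 0 of 3 tested called. The part of these cell types in the values of the oxidation genes was not tested.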

How the data were processed

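Bulk RNA of 6 libraries was analysed. Per the labels' protocols, RNA was taken from frozen tail muscle in Trizol, and a stranded mRNA kit was used. The deposited table holds whole-number read counts per gene without normalization, with gene position and length per the file headers. Aligner, counter and strand setting are not given in the sources used here, and the submitters' processing notes name GRCz11 and Cell Ranger without tying them to the table. Positions are printed as the table gives them, with no build named there.

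Genes passed edgeR's filterByExpr (minimum count 10, minimum total 15), counts were scaled by TMM, and genotypes were compared with edgeR 4.0.16 (robust quasi-likelihood, no covariate; R 4.3.3), with Benjamini-Hochberg adjustment over 14107 genes. The SE is the absolute log2 fold change over the square root of F, and 95% intervals use the fit's degrees of freedom. CPM and RPKM use the scaled library sizes. DESeq2 1.42.0 and limma 3.58.1 were alternatives. The test was checked on simulated counts drawn independently for each gene and library. That check does not cover shifts shared by many genes of 1 library, nor differences in the least abundant genes. Its planted differences were placed in more abundant genes only. No library was a repeat of another (chi-square over degrees of freedom within a group 23.2 to 84.8). Exons of 7 members overlap exons of another gene, by at most 9.84% of a member's length (pdk2b).

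The members and all lists were chosen with earlier results of these data known. Full values go to members with an unadjusted p under 0.05 and to the most abundant of each step. From the other pathway genes the called genes and up to 2 most abundant of a step may be named, and from each marker list up to 4 called genes or 2 abundant ones. angptl4, pdk2a and other genes named outside this rule were picked after their values were seen.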

Additional observations from a re-analysis of the deposited data

How the results depend on the processing

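The main test called 248 genes higher and 228 lower of 14107. Without a count filter it called 549 higher and 612 lower of 25279. With at least 50 counts in 3 libraries it called 177 higher and 127 lower of 8256. Leaving out 1 library at a time gave 50 to 572 higher and 65 to 653 lower genes. Of the fatty acid oxidation genes, 2 were called higher without a filter and 0 to 3 when 1 library was left out. None was called lower in any setting. Of the other pathway genes, 3 were called higher and 1 lower without a filter (acsl3b, ncor1, oxct1a; nrip1a), 1 higher and 1 lower with DESeq2, 1 lower with the length correction (nrip1a), and 0 to 2 in either direction when 1 library was left out. The wild type share of pdk2a in its pair ran from 10.1% to 25.4% and that of pparaa from 27.9% to 57.7% when 1 library was left out. No gene of the oxidation list was called in the main edgeR test, with the count filter and all 6 libraries. Every difference that changed sign was therefore uncalled in that test. After the change of sign, ucp3 was called in 1 setting, without wild type library 3 (log2 fold change 1.767, edgeR adjusted p = 0.000954). ucp3 changed sign with library size only (0.045), the replicate block (0.736) and limma voom (0.769), and pdk2b with the replicate block (0.825) and limma voom (0.759). The length correction gave 0.001 for acadl, 0.041 for acads, -0.003 for acox3, 0.013 for acaa2 and 0.088 for etfb. Without 1 library the log2 fold change ran from -0.317 to 0.025 (cpt1b), -0.172 to 0.137 (acadl), -0.132 to 0.01 (acads), -0.071 to 0.105 (acox3), -0.189 to 0.243 (acaa2), -0.049 to 0.053 (etfb), -0.98 to 1.819 (pdk2b), -0.035 to 0.313 (pdk4), -0.332 to 0.904 (pparab), -0.209 to 0.023 (ppardb), -0.488 to 0.21 (ppargc1a) and -0.551 to 1.767 (ucp3). The cause was not tested.

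Whether replicate numbers pair the libraries is not stated. Deviations of same-numbered libraries correlated at -0.055, 0.035 and 0.031. Those of differently numbered libraries correlated at -0.13 (mutant 2 with wild type 3) to 0.107 (mutant 2 with wild type 1). With 3 libraries a group, these values cannot settle the question. With the replicate block 201 genes were called higher and 176 lower, and 0 of the fatty acid oxidation genes. cd36 and ucp1 were below the count filter, and without it their edgeR adjusted p was 0.675 and 0.328.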
